A study of Homo sapiens with 6 samples.

Results

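Enzymes at the meeting point of lysine and kynurenine breakdown were followed in a human line of triple-negative breast cancer with mutant p53, MDA-MB-231. The genes are KYNU, AADAT, AASS, AASDHPPT and AASDH, taken by name, each with its probe set of the highest mean over the 6 arrays. All 5 were found among 14884 named genes, and each has 1 probe set. Groups of 2 arrays each were used: cells given siATM, a small interfering RNA (siRNA) against the DNA damage kinase ATM; cells given sip53, an siRNA against the transcription factor p53; and cells given the control siRNA siNC. All groups were of the same line, were transfected with a lipid reagent, and had total RNA hybridised to Affymetrix Human Gene 2.0 ST arrays, a sample to an array. The labels give neither the siRNA sequences, nor the time after transfection, nor whether the arrays of a group came from separate cultures. The standard errors (SE) below are moderated. They come from a fit shared by all groups and draw on the spread of all genes tested, not on that of the gene alone. They therefore reflect spread between these arrays, which may be technical, and the depth of each knockdown was not analysed here.

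Kynurenine is the main product of tryptophan breakdown. On the route to NAD, kynurenine is hydroxylated by KMO, and KYNU, kynureninase, splits the product. KYNU can also split kynurenine itself. Aminotransferases turn kynurenine into kynurenate, and kynurenine binds the aryl hydrocarbon receptor. Lysine is broken down in mitochondria, where AASS, the aminoadipate-semialdehyde synthase, carries out the first steps, and AADAT moves the amino group of aminoadipate later on. AADAT also acts as a kynurenine aminotransferase, so it serves both pathways. AASDHPPT attaches the phosphopantetheine arm of coenzyme A to carrier proteins, among them fatty acid synthase, and AASDH resembles the aminoadipate reductase that yeast uses to make lysine.

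The genes were chosen with values of these arrays known, in particular the low KYNU values after sip53. Their levels, differences and calls are therefore a description and carry no test of their own. A call means an adjusted p below 0.05 in a limma fit over all 10640 genes whose mean log2 value reached 5.96, the median over all probe sets on the array. All 5 genes passed this filter on dim genes. KYNU did so through its siATM and siNC arrays, since its sip53 mean of 5.50 lay under the limit.

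The promoters of genes that stood high or low in the same group are shown to compare their sequence. RefSeq windows from 250 bases before to 50 after the annotated start (GRCh38.p14) were found for all 5 genes, with 3 windows for AADAT and 1 for each of the others. The 300 bases of KYNU (chr2:142877414-142877713, plus strand), the gene lowest with sip53, are set beside those of AASS (chr7:122144200-122144499, minus strand) and AASDHPPT (chr11:106077412-106077711, plus strand), both high with sip53, and of AASDH (chr4:56387442-56387741, minus strand), whose groups overlapped. Capitals mark matches, on either strand, to TATAAA (the core promoter element of that name), TGACGTCA (cAMP response element), TGACG (its half-site, which lies inside the full element), CCAAT (a promoter box), GCGTG (the core bound by the aryl hydrocarbon receptor), TGANTCA (AP-1), the NF-kB motif (GGG and TTCC with any 3 bases between) and the interferon-stimulated element (a pair of GAAA with any 2 bases between). Each sequence runs 5′ to 3′ on the strand of its gene.
KYNU: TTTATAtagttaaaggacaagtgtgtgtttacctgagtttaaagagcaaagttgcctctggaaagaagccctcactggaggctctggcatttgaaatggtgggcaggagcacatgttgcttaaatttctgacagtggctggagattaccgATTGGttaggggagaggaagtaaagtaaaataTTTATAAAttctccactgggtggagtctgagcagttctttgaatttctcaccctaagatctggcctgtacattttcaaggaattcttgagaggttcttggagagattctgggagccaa
AASS: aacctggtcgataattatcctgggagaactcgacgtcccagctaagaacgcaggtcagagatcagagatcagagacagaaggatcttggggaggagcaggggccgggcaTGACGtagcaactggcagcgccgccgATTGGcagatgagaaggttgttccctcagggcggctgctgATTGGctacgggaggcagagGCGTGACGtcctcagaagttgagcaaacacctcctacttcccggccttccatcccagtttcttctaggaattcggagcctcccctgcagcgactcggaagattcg
AASDHPPT: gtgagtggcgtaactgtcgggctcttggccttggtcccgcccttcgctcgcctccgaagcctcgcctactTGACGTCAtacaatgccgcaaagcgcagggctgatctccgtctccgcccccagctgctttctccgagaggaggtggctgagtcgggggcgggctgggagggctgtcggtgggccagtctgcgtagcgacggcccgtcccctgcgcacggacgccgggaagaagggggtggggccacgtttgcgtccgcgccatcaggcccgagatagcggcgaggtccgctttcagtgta
AASDH: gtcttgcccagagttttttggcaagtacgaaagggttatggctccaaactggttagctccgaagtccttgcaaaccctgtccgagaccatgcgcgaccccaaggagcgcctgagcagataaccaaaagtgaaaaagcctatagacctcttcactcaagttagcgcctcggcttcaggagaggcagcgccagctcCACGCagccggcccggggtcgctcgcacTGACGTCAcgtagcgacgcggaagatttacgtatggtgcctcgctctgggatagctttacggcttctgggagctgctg

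The KYNU window held few CpG pairs. It had 1, and 3.96% of 35116 windows had fewer. Its share of G and C, 42.3%, was close to the 45% of the first AADAT window, while the other 5 windows held 57% to 77.7%. AASS had 18 CpG pairs, AASDHPPT 32 and AASDH 22, and the 3 AADAT windows had 12, 22 and 44, beside a median of 14 over all windows. Among the 5 genes, KYNU alone held TATAAA, which 11.5% of all windows hold, with matches on both strands that overlap each other 66 to 68 bases before the start and another match, on the minus strand, at the window's first base, 250 before the start. The full TGACGTCA was present 180 bases before the start of AASDHPPT and 28 bases before that of AASDH, where 1.85% of all windows hold it. AASS held its half-site at 141 and 52 bases before the start, the second overlapping a GCGTG, and the first AADAT window held it at 136, where 24.6% of all windows do. The arrays of AASDHPPT did not overlap between groups, while those of AASDH did. A relation of the element to these levels was not tested. CCAAT, held by 34.6% of windows, was in KYNU, AASS and the third AADAT window. GCGTG, held by 36.5%, was in AASS, AASDH and the third AADAT window. The NF-kB motif, held by 6.52%, was in the second AADAT window, and TGANTCA (7.71% of windows) and the interferon-stimulated element (3.57%) were in no window of these genes. The motifs were chosen with these sequences in view, so the shares over all windows give no test of enrichment. A match is a string of letters and was not tested as a binding site.

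**Figure D1:**
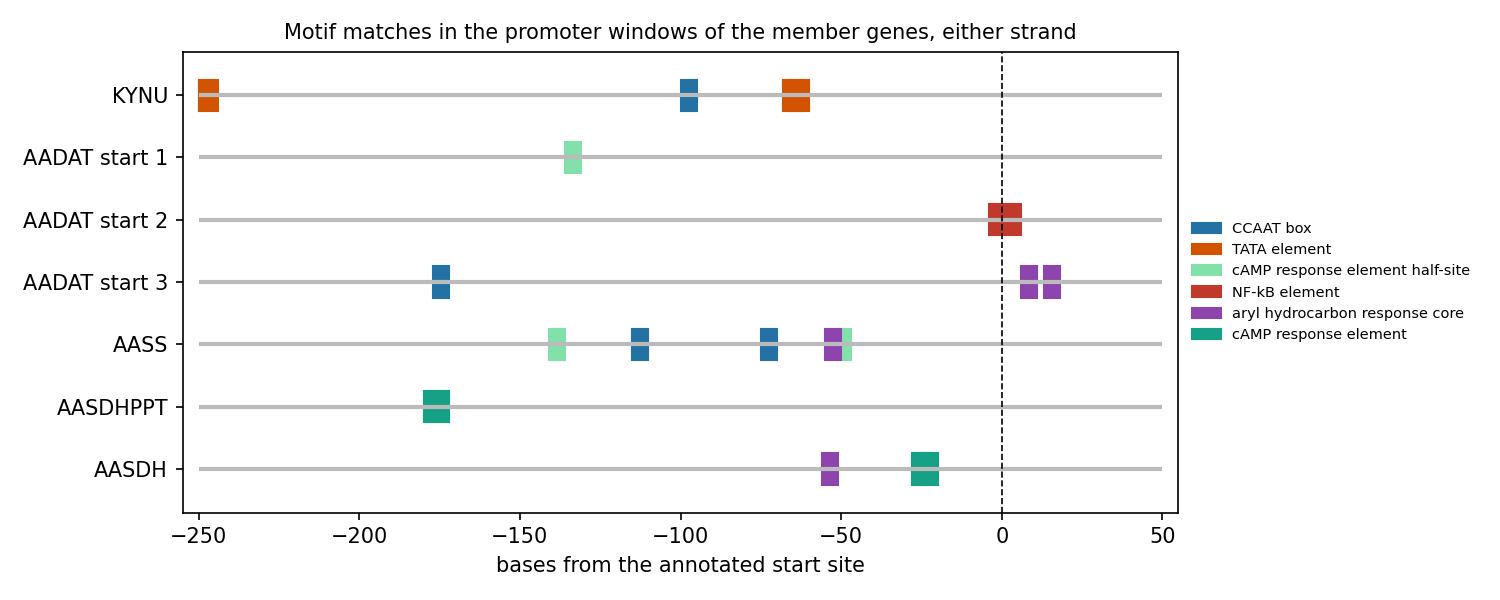
Motif matches on either strand in the 7 promoter windows of the 5 genes, drawn to scale along the distance in bases from the annotated start site (x axis, dashed line at the start). TATA elements appear in KYNU and full cAMP response elements in AASDHPPT and AASDH.

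KYNU was low with sip53 and nearly level between siATM and siNC. Its log2 values were 6.53 and 6.52 on the siATM arrays and 5.61 and 5.38 on the sip53 arrays, against 6.55 and 6.69 on the siNC arrays. Both sip53 arrays lay far below the other 4, and the siATM arrays lay just under the siNC arrays. The log2 difference of sip53 minus siNC was −1.12 (SE 0.09), or 2.18-fold lower, and only 5 of the 10640 genes had a lower one. The difference of siATM minus siNC was −0.09 (SE 0.09), about the size of its error. Set directly against each other, KYNU was 2.04-fold higher with siATM than with sip53 (log2 difference 1.03, SE 0.09). The order of its levels was siNC, siATM, sip53, of which siNC and siATM did not differ beyond their spread. In a cell population, fewer cells that make a transcript and less of it per cell cannot be told apart.

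Monocytes and macrophages are known for KYNU, and the mean level of their markers was also lowest with sip53, mainly through CD14. Of 9 such markers 5 were named, and 4 of these were bright enough to be tested. Their mean log2 value over the 5 was 8.22 on both siATM arrays, 7.75 and 7.67 on the sip53 arrays, and 7.93 and 7.91 on the siNC arrays. CD14, the lipopolysaccharide co-receptor, was higher with siATM than with siNC (log2 difference 1.19, SE 0.10, limma adjusted p = 0.000563) and lower with sip53 than with siNC (−0.78, SE 0.10, limma adjusted p = 0.00468). LYZ, lysozyme, was higher with siATM (0.38, SE 0.06, limma adjusted p = 0.00392), while with sip53 its difference was −0.16 (SE 0.06, limma adjusted p = 0.133). CD68 and CSF1R were not called in either comparison with siNC. Between the siRNAs, 3 of the 4 tested were called higher with siATM and 0 lower, where 14% of all genes tested were called higher and 16.3% lower. The 3 markers were CD14, LYZ and CD68, the last at 12.09 with siATM and 11.80 with sip53. CSF1R ran against the list's mean, at 7.59 with siATM and 7.74 with sip53, against 7.70 with siNC. CD163, a defining marker of macrophages, was dim beside the limit of 5.96, at 4.56 with siATM and 4.63 with sip53, against 4.67 with siNC. The part of these markers in the KYNU values was not tested.

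AADAT was low with siATM. It read 8.07 and 8.04 on the siATM arrays and 8.36 and 8.33 on the sip53 arrays, against 8.26 and 8.32 on the siNC arrays. The siATM arrays lay under all others, while the sip53 and siNC values almost met. The log2 difference was −0.24 (SE 0.06) for siATM minus siNC, 0.05 (SE 0.06) for sip53 minus siNC and −0.29 (SE 0.06) for siATM minus sip53. Thus this aminotransferase and KYNU, the enzymes here that take kynurenine or its hydroxylated form, stood low in different groups. The AADAT call against siNC was lost without siATM replicate 2 (−0.22), siNC replicate 1 (−0.27) or siNC replicate 2 (−0.21), and the call against sip53 without sip53 replicate 1 (−0.27).

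AASS was high with sip53. Its log2 values were 9.49 and 9.45 on the siATM arrays and 10.03 and 9.91 on the sip53 arrays, against 9.61 and 9.56 on the siNC arrays. The groups did not overlap, and the siATM and siNC arrays lay close to each other. The difference of sip53 minus siNC was 0.39 on the log2 scale (SE 0.06), or 1.31-fold higher, and 95.2% of the genes tested had a smaller one in size. For siATM minus siNC it was −0.11 (SE 0.06), and for siATM minus sip53 it was −0.50 (SE 0.06). The AASS call of sip53 against siNC was lost without sip53 replicate 1 (0.33), siNC replicate 1 (0.41) or siNC replicate 2 (0.36).

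AASDHPPT stood apart in all 3 groups. It read 9.42 and 9.41 on the siATM arrays and 10.06 and 9.99 on the sip53 arrays, against 9.71 and 9.83 on the siNC arrays. The order was sip53, siNC, siATM, with no overlap between neighbours. Its log2 difference was −0.36 (SE 0.06) for siATM minus siNC and 0.26 (SE 0.06) for sip53 minus siNC, and with siATM it was 1.53-fold lower than with sip53 (−0.61, SE 0.06). The call of sip53 against siNC was near the threshold. It was lost on removal of any of the 6 arrays (differences of 0.20 to 0.31) and when the arrays were centred on their medians (0.22) or quantile normalized (0.24).

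AASDH overlapped between all groups. Its values were 8.42 and 8.31 on the siATM arrays and 8.32 and 8.21 on the sip53 arrays, against 8.26 and 8.32 on the siNC arrays. At least 1 array of each group lay within the range of another group in every comparison. The log2 differences were 0.08 for siATM minus siNC, −0.03 for sip53 minus siNC and 0.10 for siATM minus sip53, each with an SE of 0.07. No change was detectable at this number of arrays.

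**Figure D2:**
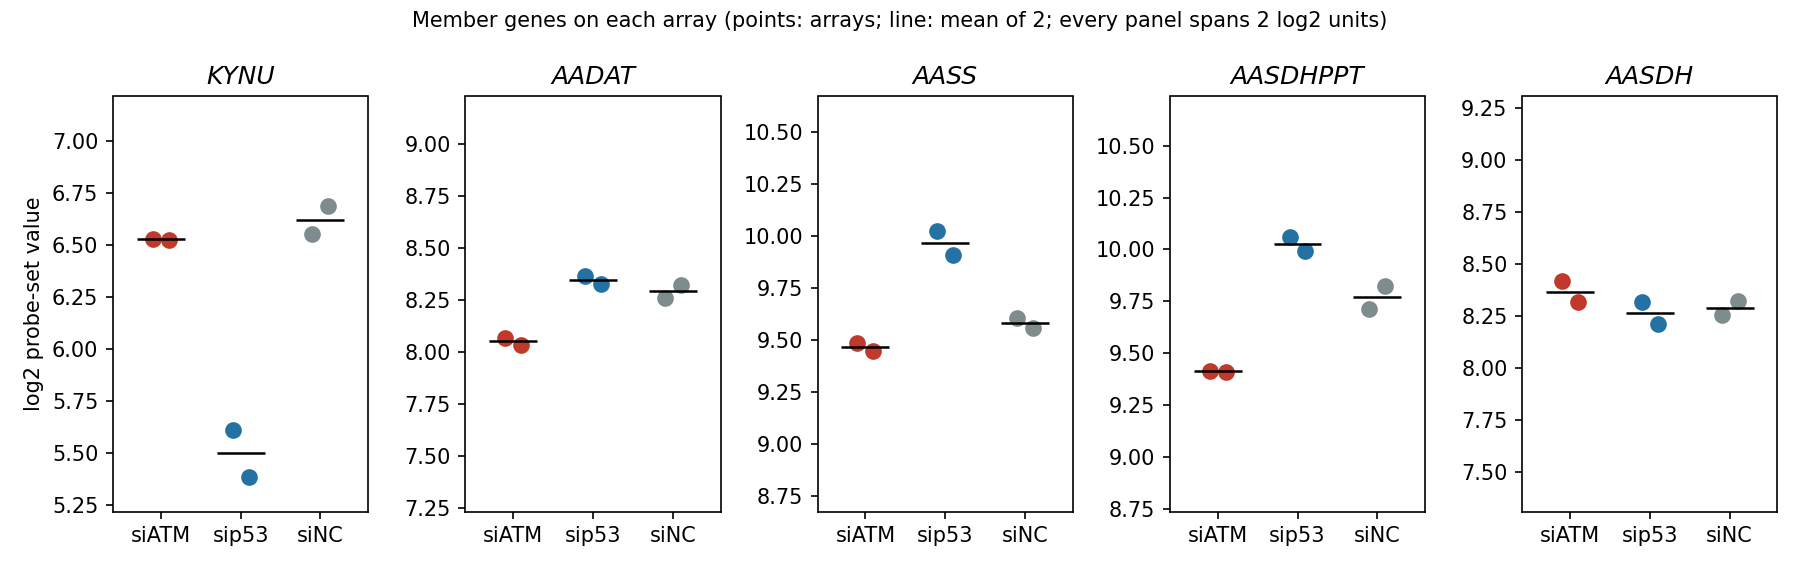
Log2 probe-set values (y axis) of the 5 genes on each array, by siRNA group (x axis), with points for arrays and a line for the mean of 2. KYNU reads 5.61 and 5.38 with sip53, below its other 4 arrays, while AASS and AASDHPPT are highest with sip53 and AADAT and AASDHPPT lowest with siATM.

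With siATM, 2 of the 5 genes were called lower than in control cells, AADAT and AASDHPPT, and 0 higher, where 25.5% of all genes tested were called, 12.5% higher and 13% lower. The arrays of both groups did not overlap in 4 of 5, and in 62.7% of all genes. With sip53, KYNU was called lower and AASS and AASDHPPT higher, or 3 of 5, where 10.6% of all genes were called, 5.47% higher and 5.11% lower. The arrays did not overlap in 4 of 5, and in 58.9% of all genes. Between siATM and sip53, KYNU was higher and AADAT, AASS and AASDHPPT were lower, or 4 of 5, where 30.3% of all genes were called, 14% higher and 16.3% lower, with no overlap in 4 of 5 and in 65.4% of all genes. Since the genes were chosen on these comparisons, nothing is read from the counts. The median log2 difference of the 5 genes was −0.11 for siATM, 0.05 for sip53 and −0.29 for siATM minus sip53, beside −0.0006, 0.01 and −0.01 over all genes tested. The first 2 comparisons share the siNC arrays. After sip53, 582 genes were called higher and 544 lower as deposited, and 410 higher and 668 lower with each array centred on its median. Centring likewise gave 1669 genes higher and 1558 lower with siATM than with sip53, beside 1487 higher and 1732 lower as deposited. In the unfiltered gene set the AADAT call of siATM against siNC and the AASDHPPT call of sip53 against siNC were lost.

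**Figure D3:**
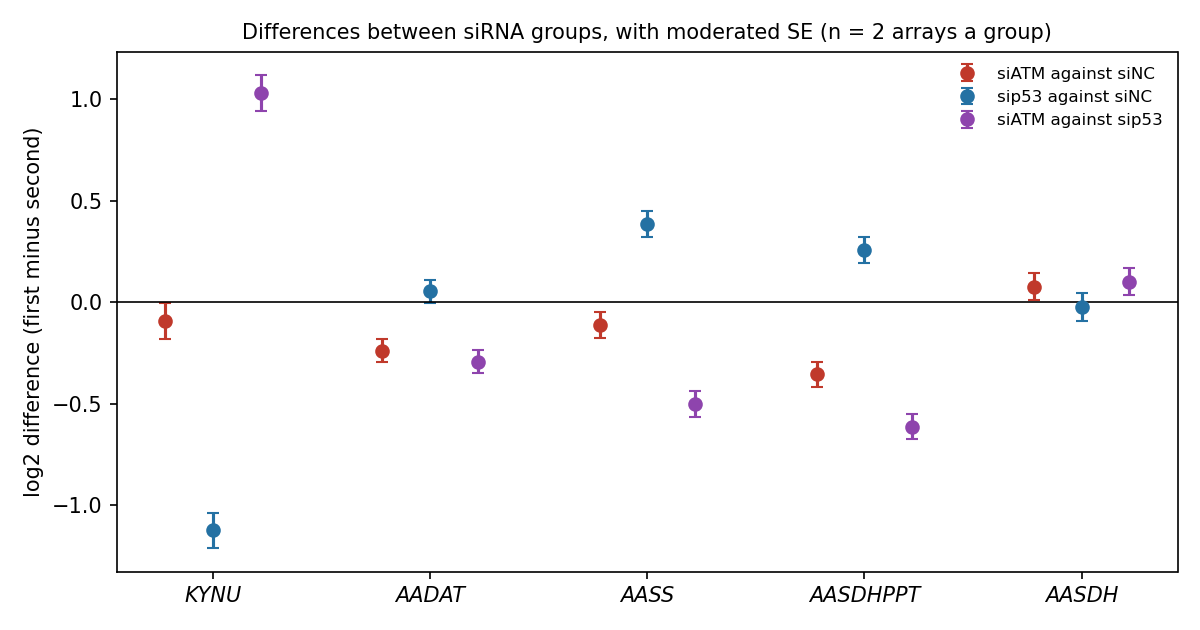
Log2 differences (y axis, first group minus second) of the 5 genes (x axis) in the 3 comparisons, with moderated standard errors from 2 arrays a group. KYNU reaches −1.12 with sip53 against siNC, while AASS and AASDHPPT lie above 0 there and below 0 for siATM against sip53.

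The genes around these enzymes in their pathways were taken from 9 lists and tested in the same fit. Of 107 listed genes 53 were named in the annotation and 48 were bright enough to be tested. With siATM, 8 were higher and 7 lower than with siNC, 31.2% of the 48 beside 25.5% of all genes. With sip53, 3 were higher and 3 lower, 12.5% beside 10.6%. With siATM against sip53, 11 were higher and 9 lower, 41.7% beside 30.3%. The medians of the 48 were 0.004, 0.004 and 0.08 on the log2 scale. Calls ran in both directions in every comparison, and whether the shares differ from those of all genes was not tested. Of the named calls, 7 of 15 with siATM, 0 of 6 with sip53 and 10 of 19 between the siRNAs were kept in every alternative fit.

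Upstream of KYNU, little of the kynurenine pathway could be read. Of the 4 genes that make kynurenine only AFMID, the formamidase, was named, so IDO1 and TDO2 were not analysed here. AFMID averaged 7.82 ± 0.02 with siATM and 7.74 ± 0.04 with sip53, against 7.96 ± 0.01 with siNC (SD, n = 2 arrays each). It did not pass in any comparison (limma adjusted p = 0.128 for siATM and 0.0513 for sip53 against siNC) although its unadjusted p was under 0.05 in both of these. With sip53 it was called lower with the filter at the 70th percentile (−0.22, adjusted p = 0.0192), after quantile normalization (−0.23, 0.0424) and after centring (−0.25, 0.0323). It is named outside the rule as the only gene of its list. KMO, the monooxygenase that acts before KYNU on the route to NAD, averaged 5.05 with siATM, 4.75 with sip53 and 4.67 with siNC. It was too dim to be tested.

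The list of kynurenine branches and of NAD synthesis held 14 genes, KMO among them, of which 9 were named and 7 tested. The kynurenine aminotransferases KYAT1, KYAT3 and GOT2 and the enzymes HAAO and ALDH8A1 were not named, so they were not analysed here. NADSYN1, the NAD synthetase, rose with siATM to 8.49 and 8.52, against 8.08 and 8.15 with siNC (log2 difference 0.39, SE 0.06, limma adjusted p = 0.00392). QPRT, which takes quinolinate into the pathway, and NMNAT2, an adenylyltransferase, fell with siATM by 0.29 and 0.28 on the log2 scale (limma adjusted p = 0.0298 and 0.0106). NAMPT, the rate-limiting enzyme of NAD salvage from nicotinamide, was the 1 gene of this list called with sip53. It was at 11.63 and 11.65 with sip53, against 12.02 and 11.97 with siNC (log2 difference −0.36, SE 0.09, limma adjusted p = 0.0452). Between the siRNAs, NADSYN1 (0.50) and NAMPT (0.35) were higher and NMNAT2 (−0.33) and QPRT (−0.26) lower with siATM. NADSYN1 in both of its comparisons and NMNAT2 against sip53 kept their calls in every fit. Against siNC, the NMNAT2 call ended on removal of an siNC array (adjusted p up to 0.0627) and the NAMPT call on removal of any sip53 or siNC array (up to 0.186). In both of its comparisons QPRT was no longer called once any array other than siATM replicate 1 was removed (up to 0.145 and 0.157), and without siATM replicate 2 its difference between the siRNAs was −0.17. NAMPT between the siRNAs was no longer called if siATM replicate 1 or an array of sip53 was removed (up to 0.102), and its difference was 0.22 without siATM replicate 1.

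On the lysine side, 14 of 21 further genes were named and 13 tested. Of the genes that follow AADAT in the pathway, DHTKD1, which forms the oxoadipate dehydrogenase, was at −0.05 with siATM and −0.16 with sip53, GCDH, the glutaryl-CoA dehydrogenase, at 0.09 and 0.07, and HADH at −0.05 and 0.04. None of these 3, named outside the rule for their place in the pathway, passed in any comparison. With siATM, SLC25A15, a mitochondrial carrier of ornithine that also takes lysine, fell 1.61-fold to 7.89 and 8.06, against 8.67 and 8.65 with siNC (log2 difference −0.69, SE 0.08, limma adjusted p = 0.00145). DLD, the lipoamide dehydrogenase that the oxoadipate complex shares with other complexes, fell (−0.33, SE 0.05, limma adjusted p = 0.00494), and ETFDH, which passes electrons from GCDH to the respiratory chain, rose (0.35, SE 0.07, limma adjusted p = 0.0125). Removal of an siNC array ended the ETFDH call (adjusted p up to 0.0684). With sip53 the only gene called was HYKK, the hydroxylysine kinase. It rose 1.55-fold to 7.79 and 7.88, against 7.09 and 7.32 with siNC (log2 difference 0.63, SE 0.09, limma adjusted p = 0.00612). Without sip53 replicate 2 its adjusted p was 0.0510. Between the siRNAs, SLC25A15 (−0.83), HYKK (−0.59) and DLD (−0.32) were lower with siATM and kept their calls in every fit. PYCR1 (0.29) and OGDH (0.25) were higher, but the PYCR1 call ended on removal of siATM replicate 2 or an array of sip53 (adjusted p up to 0.113, difference 0.18 without siATM replicate 2) and the OGDH call on removal of any array other than siATM replicate 2 (up to 0.149).

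The list around AASDHPPT, of coenzyme A synthesis and of proteins that carry or use its pantetheine arm, had 13 of 19 genes named and tested. The pantothenate kinases, which start coenzyme A synthesis, had calls in both directions. PANK3 read 11.16 and 11.10 with siATM and 10.50 and 10.46 with sip53, against 10.89 and 10.88 with siNC. It was called higher with siATM (0.25, SE 0.06, limma adjusted p = 0.0191) and lower with sip53 (−0.40, SE 0.06, limma adjusted p = 0.00700), and the siRNAs differed by 0.65 (limma adjusted p = 0.000435). AASDHPPT ran the other way in the same comparisons, at −0.36, 0.26 and −0.61. PANK1 rose with sip53 (0.36, limma adjusted p = 0.0380), PANK2 fell with siATM (−0.34, limma adjusted p = 0.00872), and PANK1 was lower with siATM than with sip53 (−0.54, limma adjusted p = 0.00293). PPCS, the next enzyme of the route, rose with siATM (0.36, limma adjusted p = 0.00469).

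LIPT2, which takes octanoate from the mitochondrial carrier protein, and LIPT1, which passes lipoate on to mitochondrial enzymes, were also called. LIPT1 rose with siATM to 7.48 and 7.40, against 6.78 and 6.82 with siNC (log2 difference 0.64, SE 0.08, limma adjusted p = 0.00169). LIPT2 rose with sip53 (0.30, limma adjusted p = 0.0377). Between the siRNAs LIPT1 (0.38) and CBR4 (0.44), a reductase of mitochondrial fatty acid synthesis, were higher with siATM and LIPT2 was lower (−0.44). FASN, the fatty acid synthase that AASDHPPT activates, was at 0.12 with siATM and 0.04 with sip53 and was not called, and is named outside the rule. Some calls against siNC ended when an array was removed. These were PANK3 with siATM (siATM replicate 1 or an array of siNC removed, adjusted p up to 0.0902), PANK3 with sip53 (siNC replicate 1 or an array of sip53 removed, up to 0.0639) and PANK2 (siNC replicate 1 removed, 0.0613). PANK1 and LIPT2 ended on removal of any sip53 or siNC array (up to 0.175 and 0.200), and LIPT1 between the siRNAs on removal of sip53 replicate 1 (0.0585).

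Of 11 genes that sense kynurenine or kynurenate, 5 were named and tested. AHR, the aryl hydrocarbon receptor, rose with siATM to 12.07 and 11.98, against 11.69 and 11.66 with siNC (log2 difference 0.35, SE 0.06, limma adjusted p = 0.00560), and kept this call in every fit. With sip53 it was at 0.12 (limma adjusted p = 0.261), and the difference between the siRNAs was 0.23 (limma adjusted p = 0.0218), a call that ended on removal of siATM replicate 1 or an array of sip53 (adjusted p up to 0.110). ARNT, its partner, fell with sip53 (−0.23, limma adjusted p = 0.0420) and was higher with siATM than with sip53 (0.25, limma adjusted p = 0.0143), and GPR35, a receptor that kynurenate can activate, rose with siATM (0.26, limma adjusted p = 0.0285). The ARNT call against siNC ended on removal of any sip53 or siNC array (adjusted p up to 0.205) and that between the siRNAs on removal of an array of sip53 (up to 0.0883). The GPR35 call ended on removal of siATM replicate 2, siNC replicate 1 or an array of sip53 (up to 0.154). TIPARP, a target gene of AHR, was at 0.06 with siATM and −0.04 with sip53 and was not called, and is named outside the rule.

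Among aminotransferases other than AADAT, 8 of 14 were named and 6 tested. PSAT1, the serine-route aminotransferase that makes oxoglutarate, fell with siATM to 10.44 and 10.37, against 10.96 and 10.90 with siNC (log2 difference −0.52, SE 0.06, limma adjusted p = 0.00157), and was lower with siATM than with sip53 (−0.64, limma adjusted p = 0.000580), in every fit. ABAT, which breaks down GABA, was called higher with siATM than with siNC (0.25, limma adjusted p = 0.0490) and than with sip53 (0.29, limma adjusted p = 0.0278). The first of these calls ended on removal of any array other than siATM replicate 2 (adjusted p up to 0.223, difference 0.17 without siATM replicate 1) and the second on removal of siATM replicate 1 or an array of sip53 (up to 0.119). With sip53 0 of the 6 were called by limma against siNC, and 1 had an unadjusted p under 0.05. Of 5 carnitine synthesis genes 2 were tested, and SHMT1 was lower with siATM than with siNC (−0.29, limma adjusted p = 0.0274) and than with sip53 (−0.32, limma adjusted p = 0.0167). The first call ended on removal of siATM replicate 2 or an array of siNC (adjusted p up to 0.123), the second on removal of siATM replicate 2 or an array of sip53 (up to 0.0919). Of 5 vitamin B6 genes 1 was tested, PLPBP, named outside the rule, and it was not called in any comparison, nor was its unadjusted p under 0.05. None of the 14 amino acid carriers of the plasma membrane was named, so carriers of tryptophan, kynurenine and lysine were not analysed here.

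**Figure D4:**
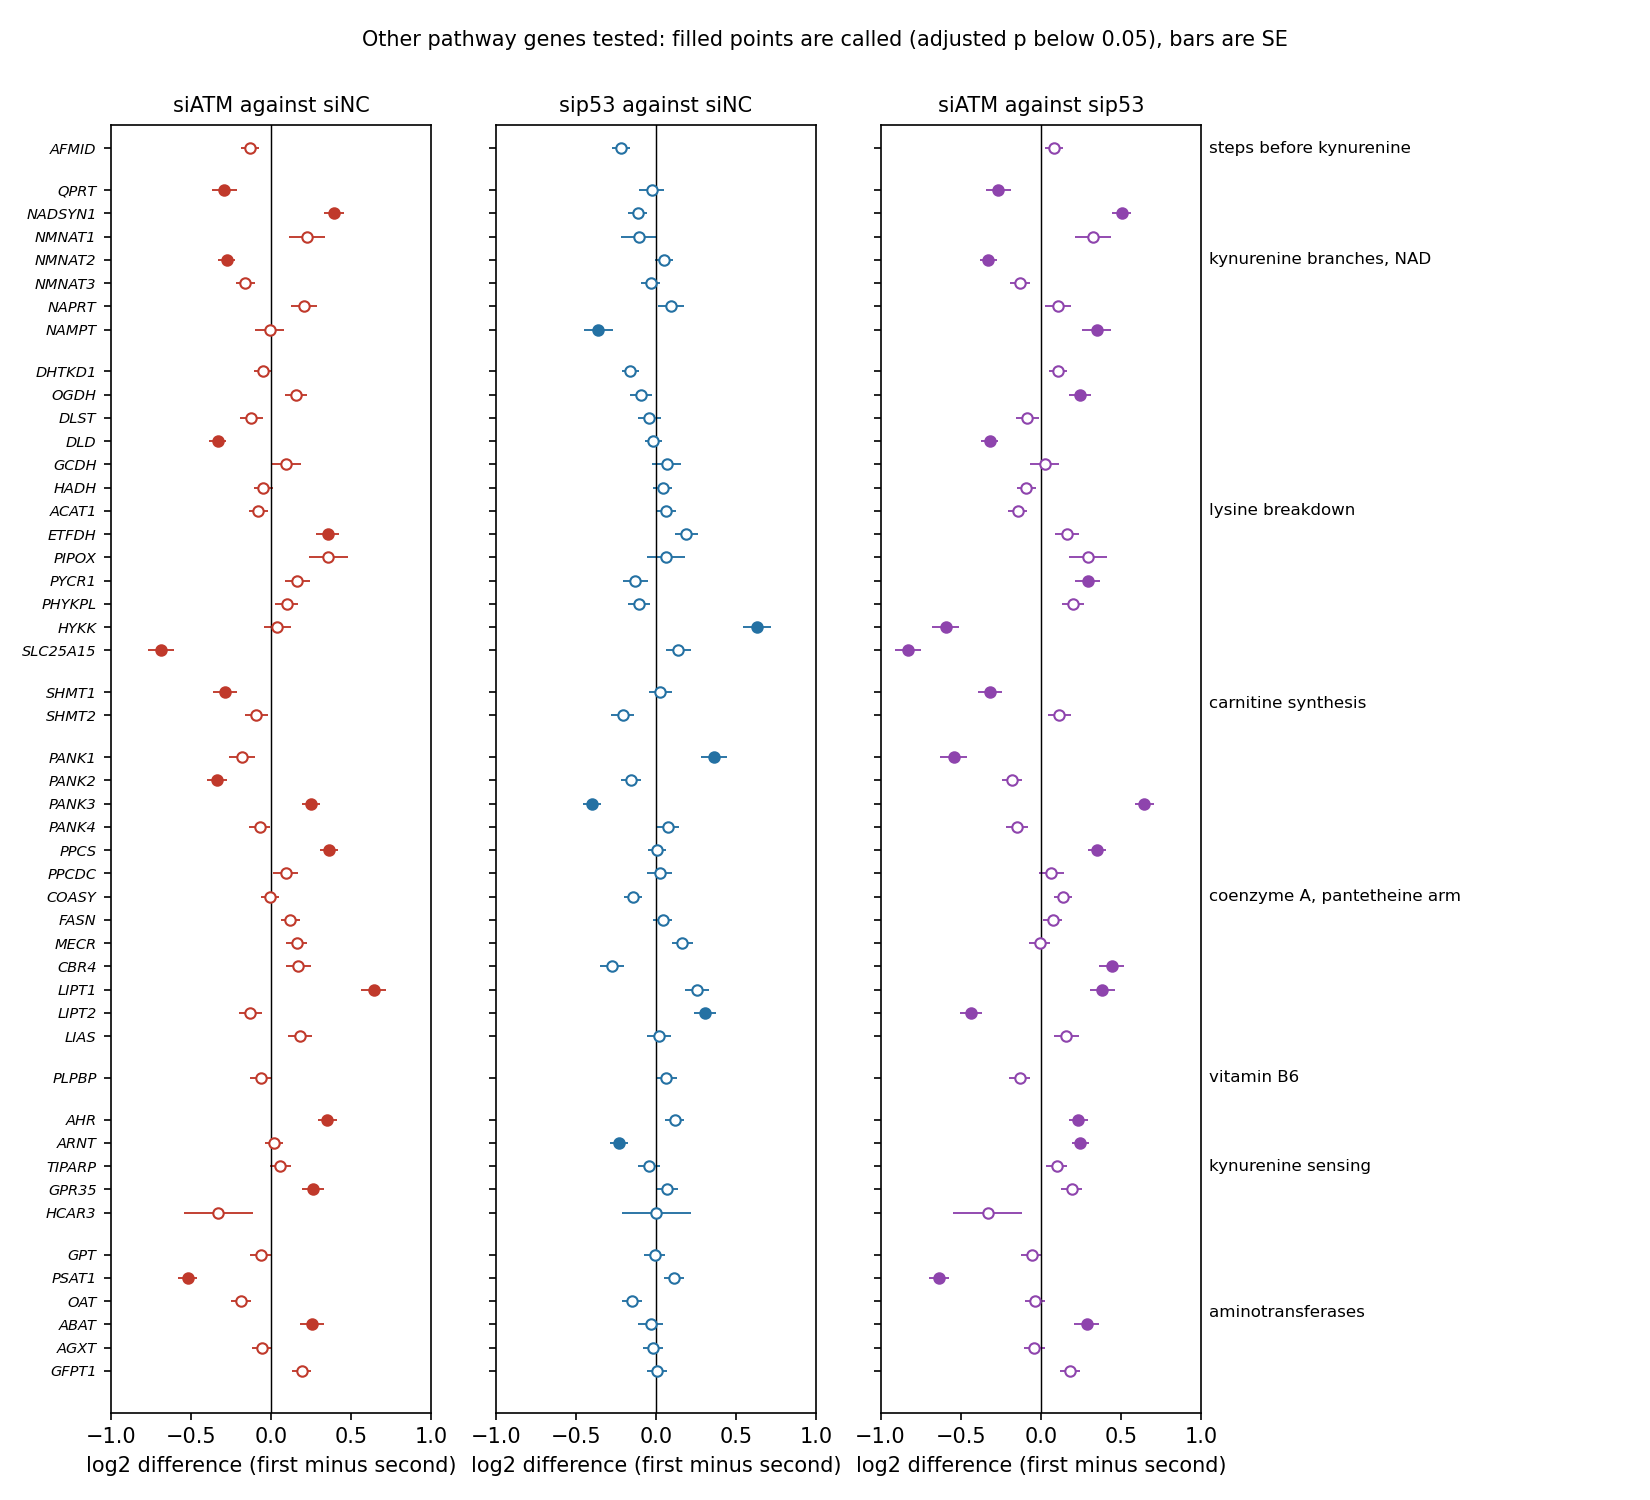
Log2 differences (x axis, first group minus second, bars SE) of the 48 other pathway genes tested (rows, grouped by role) in the 3 comparisons, with filled points for calls at adjusted p below 0.05. Calls lie on both sides of 0, with SLC25A15 at −0.69 and LIPT1 at 0.64 with siATM, and HYKK at 0.63 with sip53.

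The genes with patterns most like each enzyme were found by the root mean square difference of values centred on each gene's own mean over the 6 arrays. For KYNU these were RABAC1 (0.13), SLFN5 (0.13) and TMEM41B (0.14), beside a KYNU range of 1.31. RABAC1 averaged 10.59 with siATM and 9.69 with sip53, against 10.59 with siNC. For AADAT they were PWP2 (0.01), NUP205 (0.02) and SRP54 (0.02), for AASS they were SMIM13 (0.03), SEC23IP (0.04) and GRAMD1C (0.04), and for AASDHPPT they were FNBP1L (0.02), DNA2 (0.04) and BMP2K (0.04). For AASDH they were RABGAP1, BIRC6 and TECTA, each at 0.02. None of these genes is in the pathway lists.

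Of the nearest genes that RefSeq (GRCh38.p14) places on either side of each enzyme only KBTBD3, beside AASDHPPT, was named in the annotation used here. It read 7.22 and 7.06 with siATM and 7.15 and 7.16 with sip53, against 6.93 and 6.99 with siNC, and was not called in any comparison (limma adjusted p = 0.0976 for siATM and 0.126 for sip53 against siNC). Among nearest protein-coding genes, added after the values were seen, PPAT lies beside AASDH and encodes the first enzyme of purine synthesis. PPAT fell with siATM to 8.66 and 8.53 and rose with sip53 to 9.33 and 9.38, against 8.98 and 8.95 with siNC. Its log2 differences were −0.37 (SE 0.06, limma adjusted p = 0.00662) and 0.39 (SE 0.06, limma adjusted p = 0.0118), beside 0.08 and −0.03 for AASDH. FEZF1, beside AASS, fell with siATM (−0.53, limma adjusted p = 0.00277) and was at −0.16 with sip53 (limma adjusted p = 0.213). CRACD, on the other side of AASDH, was not called, and the nearest protein-coding genes of KYNU and AADAT were too dim to be tested.

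The arrays had medians between 5.95 and 5.98. The 2 arrays of a group differed, over all tested genes, with an SD of 0.15 for siATM, 0.12 for sip53 and 0.12 for siNC on the log2 scale. The 6 named markers of the basal-mesenchymal state of this line, VIM, CD44, AXL, MET, EGFR and ZEB1, were all above the limit of 5.96. With sip53, MET (−0.38, limma adjusted p = 0.0106) and ZEB1 (−0.24, limma adjusted p = 0.0452) fell, and MET was higher with siATM than with sip53 (0.37, limma adjusted p = 0.00358). Of the 11 luminal epithelial markers 9 were named and 6 tested. Means of the hormone receptor genes ESR1 (5.73) and PGR (4.79) and of FOXA1 (5.31) were below 5.96. Those tested had means of 11.86 (KRT18), 10.64 (KRT19), 9.02 (EPCAM), 8.40 (GATA3), 8.18 (AGR2) and 8.01 (KRT8). With siATM 3 were called higher, AGR2 (1.14), GATA3 (0.31) and KRT19 (0.29), and 0 lower, beside 12.5% and 13% of all genes tested. With sip53 2 were called higher, GATA3 (0.65) and AGR2 (0.32), and 0 lower, beside 5.47% and 5.11% of all genes. Between the siRNAs 2 were called higher and 1 lower with siATM, beside 14% and 16.3% of all genes. Of the 8 endothelial and fibroblast markers 4 were named and 2 tested. The mean over the 4 lay between 5.54 and 5.72 on every array, but their levels differed. LUM averaged 7.77, PECAM1 6.38, VWF 5.56 and DCN 2.82 over all arrays. Of those tested, LUM rose with siATM (0.68, limma adjusted p = 0.00164) and with sip53 (0.49, limma adjusted p = 0.0120), and PECAM1 fell with siATM (−0.47, limma adjusted p = 0.0113). The part of these markers in the values of the 5 enzymes was not tested.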

How the data were processed

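Total RNA of 6 samples of MDA-MB-231 cells, 2 per siRNA, was hybridised to Affymetrix Human Gene 2.0 ST arrays, per the labels. The deposited table holds 1 log2 value per probe set and array, a scale read from the values (1.33 to 14.2). The authors' background correction, summary and normalization were not stated by the labels used. Scanner files were not used, so no detection call or batch was tested, and the number of arrays limits precision.

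Of 53617 probe sets, 16098 had 1 symbol in the platform annotation, covering 14884 genes, each represented by its brightest probe set. Genes at or above the median of probe-set means (10640) were fitted in 1 model over all arrays with limma (version 3.58.1, R 4.3.3) and eBayes. P-values are two-sided and adjusted with Benjamini-Hochberg within a comparison. The fit was tested on simulated data. The main fit did not pair the arrays by the replicate numbers of the labels. Correlations of same-numbered deviations were 0.04 for siNC and siATM, 0.03 for siNC and sip53 and 0.12 for siATM and sip53. These small positive values cannot show whether same-numbered arrays shared a batch.

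The member genes and lists were chosen with earlier results of these data known. Named were the members, up to 5 called genes per list and comparison, AHR and KMO, the 3 genes most like each member (uncharacterised loci, antisense and small or long non-coding RNAs left out by symbol), and annotated neighbours. Exceptions are stated. Motifs were chosen with the promoter sequences in view. Alternatives covered the filter, scaling, variance moderation, probe-set averaging, the groups fitted, the replicate block and each array left out.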

Additional observations from a re-analysis of the deposited data

How the results depend on the processing

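KYNU after sip53 and against siATM kept its direction and call in every alternative that gave a value. So did AASDHPPT after siATM, and AASS and AASDHPPT between the siRNAs. All of these fits use the arrays on which the genes were chosen, so they are no independent test. KYNU was too dim for the filter at the 70th percentile, and each member has 1 probe set, so the alternative of each other probe set of a member was not run, and averaging probe sets left the members' differences as they were. With the replicate block AASDHPPT after sip53 stayed at 0.26 and lost its call, and with only the compared groups fitted it was 0.26 and lost it too. Without the filter on dim genes its 0.26 and the −0.24 of AADAT after siATM lost their calls, and AASDHPPT was 0.24 after quantile normalization and 0.22 after centring, also without a call. With 1 array left out, differences ranged from −0.27 to −0.21 for AADAT after siATM, −0.31 to −0.27 for AADAT between the siRNAs, 0.33 to 0.44 for AASS after sip53, 0.20 to 0.31 for AASDHPPT after sip53 and −0.079 to 0.028 for AASDH after sip53, which changed sign at 0.028 (without sip53 replicate 2) and 0.0082 (without siNC replicate 2) and was never called. The number of genes called after sip53, 1126, was 481 without the filter and 1742 under robust moderation with a trended variance. With 1 array left out it was 272 to 1242, after siATM 1437 to 2226 (2708 with all arrays) and between the siRNAs 1842 to 2852 (3219 with all arrays). Pathway genes called were 9 to 16 after siATM, 0 to 6 after sip53 (2 without the filter) and 11 to 21 between the siRNAs. Among the pathway genes, calls of ABAT, AHR, ARNT, GPR35, LIPT2, NAMPT, OGDH, PANK1, PANK3, PYCR1, QPRT and SHMT1 were lost in 1 comparison or more without the filter, those of ABAT, GPR35 and QPRT under robust moderation, those 3 and OGDH with only the compared groups fitted, and LIPT2 after centring. The replicate block ended ABAT after siATM and ARNT after sip53. The cause of these changes was not tested.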
